A study of Mus musculus with 9 samples.

Results

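The 37 genes described here act in DNA replication and in the making of its nucleotides. They were chosen by function: 8 genes of origin licensing (Mcm2 to Mcm7, Cdc6 and Cdt1), 5 of helicase activation, 8 of the DNA polymerases and primase, 9 of the sliding clamp, its loader, single-strand binding and the lagging strand, 4 of nucleotide synthesis, and 3 of the entry into S phase. A gene was represented by the brightest probe set that names it alone, and by this rule 37 of 37 were found among 19937 measured genes.

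Gene expression was measured on 9 Affymetrix arrays of sorted mouse CD4+ T cells, 3 arrays in each of 3 groups. Naive CD4+ cells were sorted at day 29 by surface markers that included the absence of CD44, from spleens of mice given a sham treatment. Mice of both other groups were sensitised with 10 µg ovalbumin in 1.5 mg aluminium hydroxide, injected into the peritoneum at days 1, 14 and 21. Acute Th2 cells (CD4+ CD69+ ST2+) were sorted from the lung at day 29, after 1% ovalbumin aerosol on 3 days in a row. Chronic Th2 cells were sorted from the lung by the same markers at day 104, after 12 weeks of aerosol with 2 challenges a week. After the sort, antibodies to CD3 and CD28 stimulated the cells of all 3 groups for 8 h, so that every level is one after culture. Naive replicate 1 differed from the other naive arrays in genes of this response, as given below. The study asked what keeps chronic allergic airway inflammation going. The sources used here do not give strain, age or the number of mice behind an array, and p-values measure the spread between these samples. Organ and cell state cannot be told apart in the comparisons with naive cells, nor can day and stage of inflammation in the comparison of both Th2 groups. In cells measured in bulk, fewer cells of a type and less RNA per cell cannot be told apart either.

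A resting T cell holds most of its replication genes at a low level and induces them on the way from G1 into S phase. Origins are first licensed, when Cdc6 and Cdt1 help to load the ring of Mcm2 to Mcm7 onto DNA. The ring then becomes an active helicase with Cdc45 and the GINS complex, and polymerases copy both strands with the clamp Pcna. Ribonucleotide reductase, thymidylate synthase and thymidine kinase supply deoxynucleotides. Many of these genes are targets of E2F transcription factors, which the retinoblastoma family holds back until cyclin-dependent kinases act.

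Because E2F sites are the sequence feature for which these promoters are known, the RefSeq promoters (GRCm38.p6, from 250 bases before to 50 after the start site) were searched. The words were TTTCCCGC, TTTGGCGC, TTTCGCGC and TTTGCCGC, on both strands, and words of opposite strands can overlap. Promoters were at hand for 30 of the 37 genes, and 12 of the 30 (40%) held at least 1 word. Among 15613 genes of the array with a promoter in the table, 3.48% did, and of all 27025 genes listed there 2.6% did. The shorter word CCAAT, also searched on both strands, was in 17 of the 30 (56.7%) and in 41.7% of the genes of the array. GC content was alike, with a median of 57.7% in these promoters and of 57.3% in those of the array. The word matches are letters in a window and not measured binding. The 12 genes were Mcm3, Mcm5, Mcm6, Mcm7, Cdc6, Cdt1, Gins3, Pola1, Pold1, Pole2, Rfc3 and Lig1. Windows are shown for 8 of them, 5 of the 6 licensing genes (the words of Mcm7 lie far apart) and 1 each of primase-polymerase, leading strand polymerase and ligase, since these genes differ below in how they stood between the groups. They are written on the strand of the gene, with the words in capitals, and those of Mcm3, Cdt1, Pole2 and Lig1 are short because the words lie after the start site.

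Mcm3, chr1:20820266-20820295, minus strand: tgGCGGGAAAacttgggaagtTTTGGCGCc

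Mcm5, chr8:75109332-75109391, plus strand: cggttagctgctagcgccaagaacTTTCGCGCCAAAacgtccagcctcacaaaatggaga

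Mcm6, chr1:128359735-128359825, minus strand: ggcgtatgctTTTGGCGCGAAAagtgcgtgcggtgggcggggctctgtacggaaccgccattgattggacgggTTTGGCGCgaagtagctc

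Cdc6, chr11:98907987-98908046, plus strand: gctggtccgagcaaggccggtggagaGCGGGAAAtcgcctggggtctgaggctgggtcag

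Cdt1, chr8:122568035-122568064, plus strand: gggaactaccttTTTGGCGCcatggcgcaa

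Pola1, chrX:93632260-93632319, minus strand: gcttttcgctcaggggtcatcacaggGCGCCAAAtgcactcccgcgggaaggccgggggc

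Pole2, chr12:69228162-69228191, minus strand: cgtcggcggtgGCGCCAAAtcgcgaacatg

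Lig1, chr7:13278841-13278870, plus strand: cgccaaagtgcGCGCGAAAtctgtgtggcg

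In Mcm5 and Mcm6 words of both strands overlap, and Mcm6 holds a further word nearer to the start site. Among the 8, Mcm3, Mcm6, Cdc6 and Lig1 had every acute Th2 array above every naive array, while Cdt1 and Pole2 had every chronic Th2 array below every naive array. None of these genes was called in the comparison named for it (limma, adjusted p under 0.05). Over all genes, 8.8% had such arrays in the first of these comparisons and 12.3% in the second. The 8 were picked because they differ in this way, so that this describes single genes and not the words.

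The deposited levels are log2 intensities. As a measure of background, the 95th percentile of 1015 olfactory receptor genes was taken on each array, and a level over it is called above background. That percentile ran from 6.32 to 6.68 on the naive and acute Th2 arrays and was 7.14, 6.88 and 6.57 on chronic Th2 replicates 1, 2 and 3, so that dim genes were harder to see in chronic Th2 cells. Of the 37 genes, 30 were above background on at least 3 arrays. The other 7 were Cdc6, Gins1, Gins3, Pola1, Pole, Ccne2 and E2f1. On all 3 arrays of a group, 23 of 37 genes were above background in naive cells, 28 in acute Th2 cells and 18 in chronic Th2 cells. Naive replicate 1 stood apart from the other naive arrays. Il2, the growth factor made by activated T cells, was at 5.07 on it and at 11.33 and 11.27 on naive replicates 2 and 3. Of 20 genes induced early by the T cell receptor, naive replicate 1 was the lowest naive array in 16 and the highest in 4. Over all genes it was the lowest in 46.2% and the highest in 37.4%. Whether its cells had responded to the stimulation was not tested. The Pearson correlations of this array across genes with naive replicates 2 and 3 were 0.938 and 0.941, against 0.991 between those. Chronic Th2 replicate 3 correlated best with acute Th2 replicate 3 (0.991) and less with its own group (0.980 and 0.985). Results are therefore also given without these arrays. The Th2 genes Gata3, Il5 and Il13 and the memory marker Cd44 rose in both Th2 groups against naive cells (limma, adjusted p from 5.21e-09 to 0.00068), and Cd4 and Cd3e were above background on every array. Cd69, by which the Th2 cells were sorted, was not higher in them: it was at 10.59, 12.08 and 12.20 in naive, 10.77, 11.34 and 11.23 in acute Th2 and 10.24, 10.22 and 11.14 in chronic Th2 cells, with overlap and no call (limma, adjusted p = 0.683 and 0.158). Il1rl1, the gene of ST2, is not analysed here. Of the marker lists of other cells, on all 3 arrays of a group, 0 of 7 dendritic cell, 0 of 6 granulocyte and 0 of 6 mast cell genes were above background, at most 1 of 7 B cell genes (Cd79b), 1 of 3 erythroid genes (Slc4a1), 1 of 5 CD8 T and NK cell genes (Cd8b1, in naive cells), 2 of 8 macrophage genes (Cd68 and Siglecf) and 3 of 10 lung structural genes (Pecam1, Col1a1 and Col3a1). Cd8b1 was at 7.89, 7.14 and 6.77 in naive cells and between 6.60 and 6.78 on the 6 Th2 arrays, and the summed level of its list was 8.16 to 8.67 in naive, 7.94 to 8.02 in acute and 8.04 to 8.10 in chronic Th2 cells. The lung list summed to 9.71 to 10.47 in naive, 9.98 to 10.28 in acute and 9.74 to 10.08 in chronic Th2 cells, with Pecam1 from 7.08 to 9.56 over the 9 arrays. The part of other cells in the results was not tested.

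**Figure D1:**
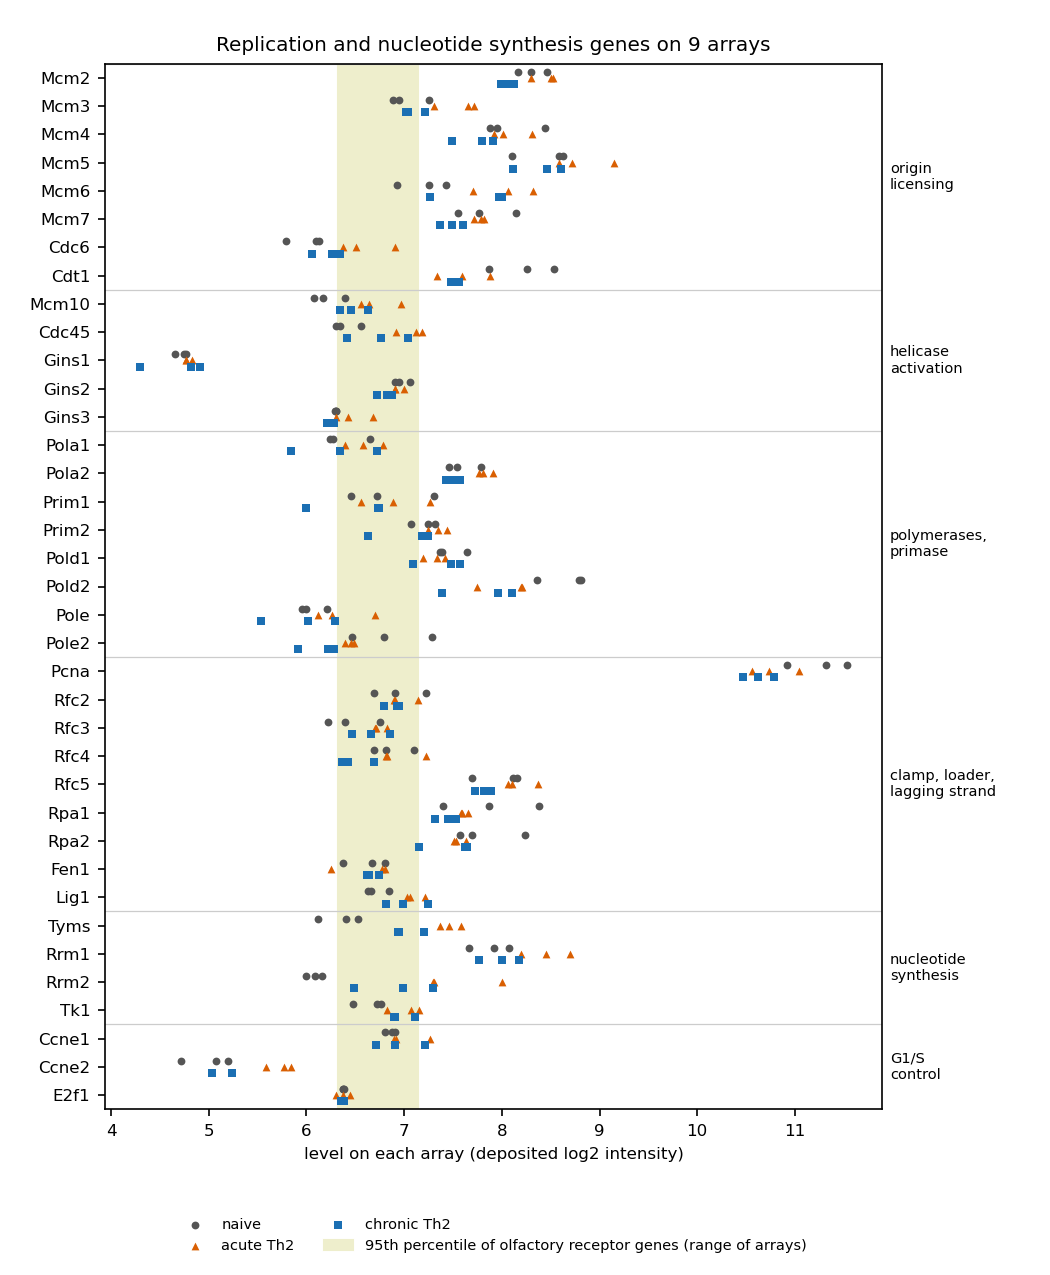
Level of each of the 37 genes (log2 intensity, horizontal axis) on each of the 9 arrays, as 1 point per array with the group as colour and shape, ordered by role; the band spans the background limits of the 9 arrays. The 9 Pcna points lie between 10.47 and 11.53, and Tyms and Rrm2 have every acute Th2 point above every naive point.

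The first comparison sets acute Th2 against naive cells. It asks how the replication genes of T cells from inflamed lung stand beside those of T cells that have not met antigen. The stimulation was described alike for both groups. Enzymes of nucleotide synthesis rose: Tyms 2.16-fold and Rrm2 at least 2.18-fold. Cdc45, a part of the active helicase, rose 1.60-fold, and Ccne2, a cyclin of the G1 to S transition, rose in intensity although it stayed within background. Of the 37 genes 4 were called higher and 0 lower (limma, adjusted p under 0.05 over 19937 genes), where 3.67% of all genes were called higher and 2.2% lower. At an unadjusted p under 0.05, 12 were higher and 3 lower. The share of all genes at an unadjusted p under 0.05 was not taken, here or below. Such counts are therefore not read as a result about the 37. The median difference of the 37 was 0.16 against -0.03 over all genes, and 26 of 37 lay above 0, against 41.9% of all genes. Every acute Th2 array lay above every naive array in 11 of the 37 genes, as in 8.8% of all genes, and below in 1 (Pold2), as in 10.9% of all genes.

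Nucleotide synthesis held the largest differences. Tyms, thymidylate synthase, which makes dTMP, had levels of 6.12, 6.53 and 6.41 on the naive arrays, 7.58, 7.46 and 7.37 on the acute Th2 arrays and 7.20, 6.94 and 6.95 on the chronic Th2 arrays. The 3 groups did not overlap, with acute Th2 cells highest, chronic Th2 cells between and naive cells lowest, and in naive cells 1 of 3 arrays was above background. The difference of acute Th2 minus naive was 1.11 (SE 0.13, adjusted p = 0.00118). Rrm2, the small subunit of ribonucleotide reductase, whose amount follows S phase, was at 6.16, 6.0 and 6.09 in naive cells, 8.0, 7.30 and 7.31 in acute Th2 cells and 6.99, 7.30 and 6.49 in chronic Th2 cells. All naive arrays were within background and the highest acute Th2 array was replicate 1. The measured difference was 1.45 (SE 0.24, adjusted p = 0.00773), and with the naive arrays set to their background limit the acute Th2 mean was at least 2.18-fold higher. Both calls held in each of the 9 fits that left out 1 array. Rrm1, the large subunit, was at 8.07, 7.92 and 7.66 in naive, 8.70, 8.45 and 8.20 in acute Th2 and 8.00, 8.18 and 7.77 in chronic Th2 cells. Its acute Th2 arrays all lay above the naive ones, but the difference of 0.56 (SE 0.16) had an adjusted p of 0.0997 (limma). Tk1, the thymidine kinase of the salvage route, was at 6.48, 6.72 and 6.76 in naive, 7.15, 7.07 and 6.83 in acute Th2 and 7.11, 6.91 and 6.90 in chronic Th2 cells. Again the groups did not overlap in acute Th2 minus naive, with a difference of 0.36 that was not called (limma, adjusted p = 0.146). A second probe set naming Tk1 was at 6.44, 6.35 and 6.67 in naive, 6.80, 6.82 and 6.62 in acute Th2 and 6.67, 6.75 and 6.55 in chronic Th2 cells, and there both Th2 groups overlapped with naive cells. Which of the 2 sets reads Tk1 itself was not tested, so that the Tk1 levels are uncertain.

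**Figure D2:**
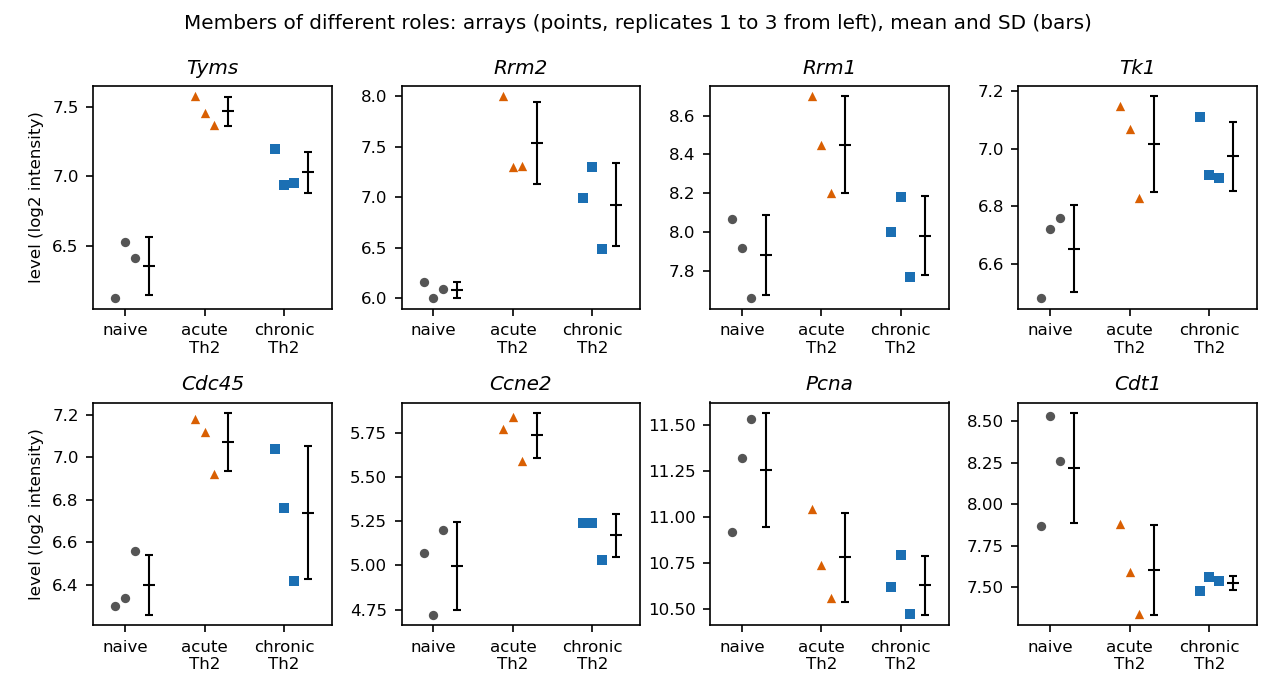
Levels (log2 intensity, vertical axis, own scale in each panel) of 8 of the 37 genes by group, with 1 point per array and the mean with its SD (n = 3) as a bar. Tyms and Rrm2 have no naive point near the acute Th2 points, while Pcna and Cdt1 are highest in naive cells.

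Origin licensing was uneven, with 5 of 8 genes above 0, a median difference of 0.26 and none of the 8 called (limma; 3 higher and 1 lower at an unadjusted p under 0.05). Mcm6, a subunit of the helicase ring, was at 7.43, 7.25 and 6.93 in naive, 8.32, 8.06 and 7.71 in acute Th2 and 8.00, 7.97 and 7.26 in chronic Th2 cells. Acute Th2 and naive arrays did not overlap (difference 0.83, SE 0.24, adjusted p = 0.0934 by limma). Mcm3, another subunit of the ring, was at 6.95, 7.25 and 6.89 in naive and at 7.65, 7.72 and 7.31 in acute Th2 cells (difference 0.53, adjusted p = 0.0651 by limma). Cdc6, which loads the ring, was within background on the naive arrays (6.13, 5.79 and 6.10) and at 6.91, 6.51 and 6.37 on the acute Th2 arrays, 2 of which were above background. Mcm2, Mcm4 and Mcm7 overlapped between the groups, with differences of 0.13, -0.01 and -0.05, although they belong to the same ring. Cdt1, the partner of Cdc6, lay on the other side: 7.87, 8.53 and 8.26 in naive, 7.88, 7.59 and 7.34 in acute Th2 and 7.48, 7.56 and 7.54 in chronic Th2 cells. Only naive replicate 1 and acute Th2 replicate 1 overlapped (difference -0.61, SE 0.18, adjusted p = 0.108 by limma).

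Of the 5 genes of helicase activation, Cdc45 was called. It was at 6.30, 6.34 and 6.56 in naive, 7.18, 7.12 and 6.92 in acute Th2 and 7.04, 6.76 and 6.42 in chronic Th2 cells. The chronic Th2 arrays overlapped with both other groups, and 0 of 3 were above background. The acute Th2 arrays were all above background and all above the naive ones, of which 1 was above background (difference of acute Th2 minus naive 0.68, SE 0.16, adjusted p = 0.0415 by limma). This call was lost without naive replicate 2 (0.115) or 3 (0.0528), acute Th2 replicate 1 (0.142), 2 (0.15) or 3 (0.0818), or chronic Th2 replicate 2 (0.0775), all adjusted p by limma. Mcm10, which links the helicase to polymerase alpha, was within background in naive cells (6.08, 6.17 and 6.39) and above it on all acute Th2 arrays (6.97, 6.56 and 6.64), at least 1.24-fold higher, and was not called (limma, adjusted p = 0.0736). Gins1, Gins2 and Gins3, subunits of the GINS complex, had differences of 0.07, -0.03 and 0.17 with overlapping arrays, and Gins1 and Gins3 were dim.

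Polymerases and primase, with 0 of 8 called (limma; 1 higher and 1 lower at an unadjusted p under 0.05), had a median difference of 0.11. Pold2, a small subunit of polymerase delta, was at 8.36, 8.81 and 8.79 in naive, 8.21, 8.20 and 7.75 in acute Th2 and 7.96, 8.10 and 7.39 in chronic Th2 cells. Every Th2 array was below every naive array, with a difference of acute Th2 minus naive of -0.60 (SE 0.22, adjusted p = 0.192 by limma). Pola2, the second subunit of the primase-polymerase, had a difference of 0.23, and Pole2, of polymerase epsilon, one of -0.40, both with overlapping arrays. Pola1, Prim1, Prim2, Pold1 and Pole ranged from -0.15 to 0.30 and overlapped.

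Pcna, the sliding clamp, was at 10.92, 11.32 and 11.53 in naive, 11.04, 10.74 and 10.56 in acute Th2 and 10.62, 10.79 and 10.47 in chronic Th2 cells. Naive replicate 1 lay within the range of the acute Th2 arrays, and the difference of acute Th2 minus naive was -0.47 (SE 0.18, adjusted p = 0.218 by limma). A second probe set naming Pcna gave means of 10.99 ± 0.19 in naive, 10.44 ± 0.16 in acute Th2 and 10.47 ± 0.21 in chronic Th2 cells (SD, n = 3 each). Its naive arrays were at 10.77, 11.13 and 11.07. By this set every acute Th2 array (10.54, 10.52 and 10.26) and every chronic Th2 array (10.41, 10.7 and 10.29) lay below them. RefSeq lists pseudogenes of Pcna, which the array may not separate from it, so that the Pcna levels are uncertain. Whether the brighter or the second set reads Pcna itself was not tested. Lig1, which seals Okazaki fragments, was at 6.66, 6.85 and 6.63 in naive and 7.21, 7.06 and 7.03 in acute Th2 cells, without overlap (difference 0.39, adjusted p = 0.134 by limma). The clamp loader genes Rfc2 to Rfc5 had differences from 0.05 to 0.29, the single-strand binding genes Rpa1 and Rpa2 both -0.28, and Fen1, the flap nuclease, -0.01, all overlapping. In the whole group of 9 none was called (limma; 1 higher and 1 lower at an unadjusted p under 0.05).

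Among the genes of S phase entry, Ccne2 was at 5.07, 4.72 and 5.20 in naive, 5.77, 5.84 and 5.59 in acute Th2 and 5.24, 5.24 and 5.03 in chronic Th2 cells. Acute Th2 arrays lay above all others, yet each of the 9 values was within background, so that the difference of 0.74 (SE 0.14, adjusted p = 0.0158) is one of intensities and gives no fold of expression. The call was lost without acute Th2 replicate 1 (limma, adjusted p = 0.0636) or 2 (0.0765). Ccne1, the other cyclin E, had a difference of 0.16 with overlapping arrays. E2f1, an activator of the whole programme, was dim, and its 9 levels ran from 6.30 to 6.45 with a difference of 0.00 (SE 0.07).

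Without naive replicate 1 the counts in acute Th2 minus naive were larger, 8 higher and 2 lower of 37, with 6.05% of all genes higher and 6.11% lower in that fit. The added genes were Mcm6, Cdc6, Pola2 and Rrm1 (higher) and Cdt1 and Pcna (lower). Cdt1 then had a difference of -0.79 (adjusted p = 0.0108) and Pcna of -0.65 (adjusted p = 0.0266; both limma). Mcm6 was also called without chronic Th2 replicate 3 (0.0441), and Mcm3 without acute Th2 replicate 3 (0.0444) or naive replicate 2 (0.0412). The count called higher was 2 without acute Th2 replicate 1 and 2 without acute Th2 replicate 2.

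**Figure D3:**
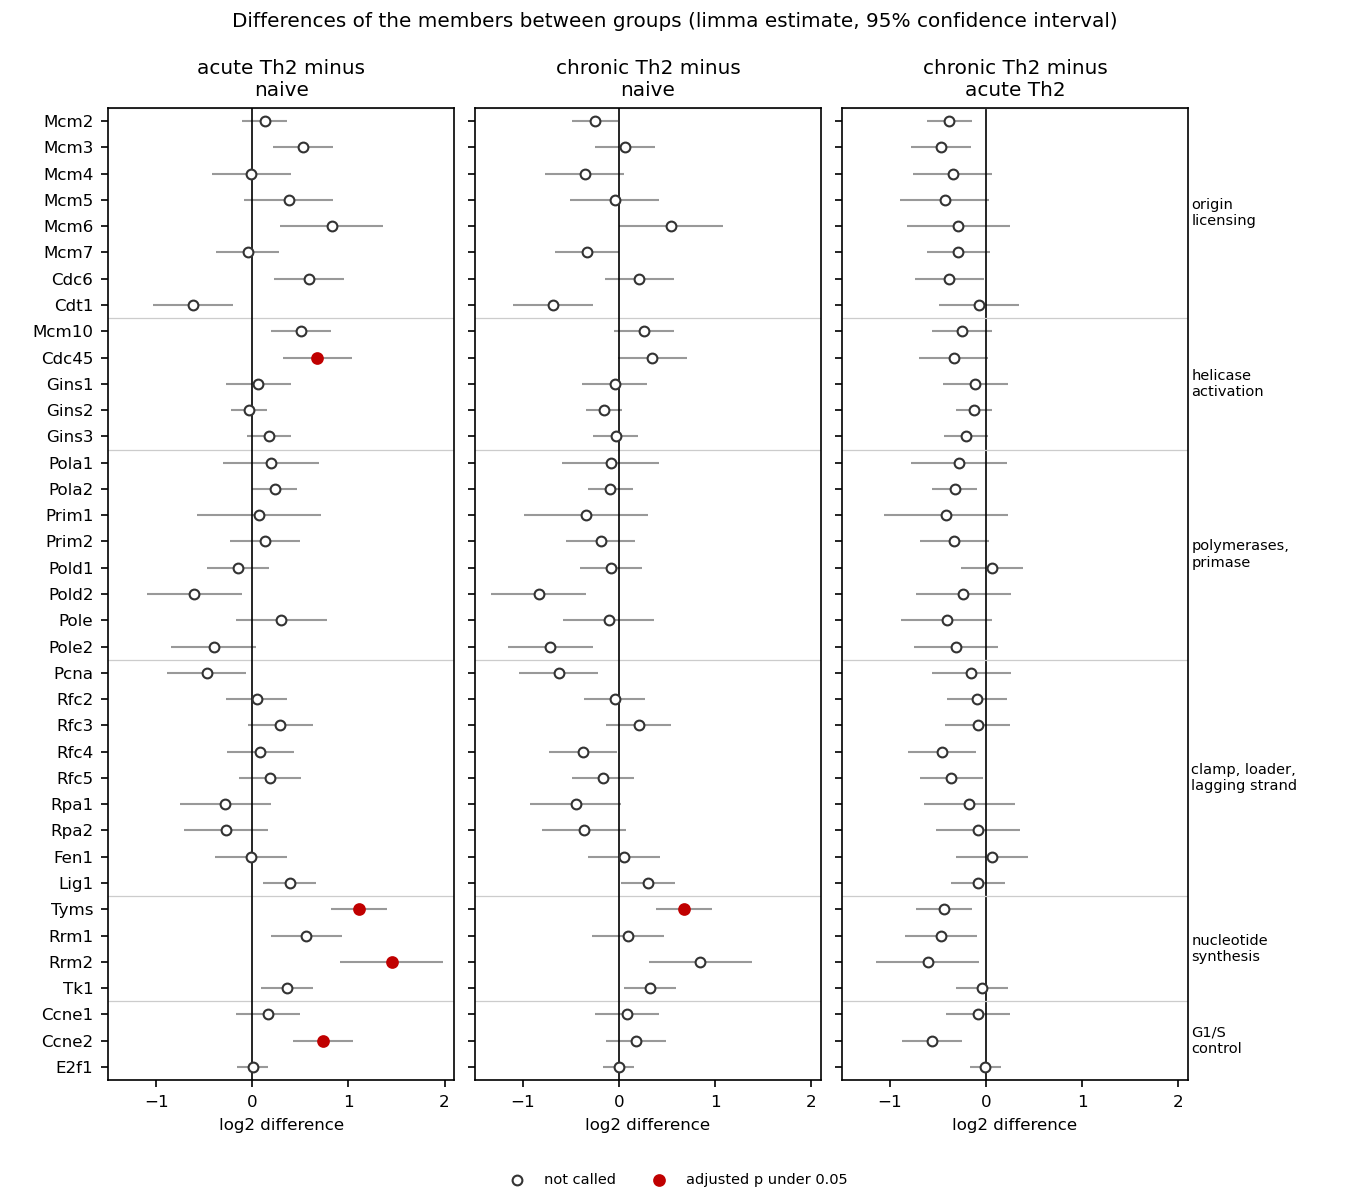
Log2 differences of the 37 genes in the 3 comparisons (limma estimates) with 95% confidence intervals, ordered by role, filled where the adjusted p was under 0.05. Filled points are Cdc45, Tyms, Rrm2 and Ccne2 in the first panel and Tyms in the second, and in the third panel 35 of 37 points lie below 0 with none filled.

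The second comparison, chronic Th2 against naive cells, shares its naive arrays with the first. Tyms rose again, 1.59-fold (difference 0.67, SE 0.13, adjusted p = 0.0155), and was the only one of the 37 called, with 0 called lower (limma; 4 higher and 7 lower at an unadjusted p under 0.05). Over all genes 3.68% were called higher and 4.2% lower at the adjusted threshold. The median of the 37 differences was -0.05 against 0.04 over all genes, and 14 of 37 lay above 0, against 57.3% of all genes. Among the 10541 genes above background on at least 3 arrays, however, 38.7% lay above 0 with a median of -0.10, which is near the share of the 37. Arrays did not overlap in 3 genes that were higher in chronic Th2 cells (Tyms, Rrm2 and Tk1, the last by 1 of its 2 probe sets), as in 15.6% of all genes, and in 8 that were lower (Mcm2, Cdt1, Gins2, Gins3, Pold2, Pole2, Pcna and Rfc4), as in 12.3% of all genes. The shares of all genes include dim genes and were not taken among the genes above background alone. The counts of the 37 without overlap are therefore not read as a result about them, and were not tested further. Of the lower genes, Gins3 was within background on all naive and chronic Th2 arrays and differed by only -0.04.

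On the higher side stood nucleotide synthesis. All 4 of its genes were above 0 with a median of 0.50, and Rrm2 had a difference of 0.84 (SE 0.24, adjusted p = 0.0674 by limma), with 1 of 3 chronic Th2 arrays above background. On the lower side stood licensing, polymerase and clamp genes. The largest were Pold2 at -0.84 (SE 0.22, adjusted p = 0.0523), Pole2 at -0.72 (SE 0.19, adjusted p = 0.0589), Cdt1 at -0.69 (SE 0.18, adjusted p = 0.0556) and Pcna at -0.63 (SE 0.18, adjusted p = 0.0715), all by limma and none called. Pole2, a subunit of the leading strand polymerase, was at 7.29, 6.79 and 6.47 in naive, 6.39, 6.49 and 6.46 in acute Th2 and 6.22, 6.28 and 5.91 in chronic Th2 cells, the last all within background, so that its difference gives no fold. Of the 8 polymerase and primase genes all 8 had a difference below 0, with a median of -0.15. Among the genes above background on at least 3 arrays 61.3% lay below 0, with a median of -0.10. Like Pole2, the genes Pola1, Prim1 and Pole were within background on all chronic Th2 arrays. Mcm6 remained above naive by 0.54 and Lig1 by 0.30 without being called, while other subunits of the ring lay below naive, Mcm2 at -0.25, Mcm4 at -0.36 and Mcm7 at -0.34.

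These counts moved with single arrays. Without naive replicate 1, 2 of 37 were higher (Tyms and Rrm2) and 5 lower (Cdt1, Mcm7, Pold2, Pole2 and Pcna; adjusted p from 0.00572 to 0.0373 by limma), with 5.84% of all genes higher and 11.4% lower in that fit. Pole2 and Rpa1 were called lower without naive replicate 3 (limma, adjusted p = 0.0224 and 0.0382), and Tyms was no longer called without chronic Th2 replicate 1 (0.0654). Rrm2 was called higher without chronic Th2 replicate 3 (0.0264) or without acute Th2 replicate 1 (0.0424), which left 2 genes higher in each of these fits. Without chronic Th2 replicate 3 the median of the 37 was 0.06 in place of -0.05.

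The third comparison sets chronic against acute Th2 cells, both sorted from lung by the same markers. None of the 37 genes was called in either direction, and of all genes 0.015% were called higher and 0.015% lower (limma, adjusted p under 0.05). At an unadjusted p under 0.05, 0 of the 37 were higher and 10 lower, without a share of all genes to set beside them. The direction was nevertheless shared: 35 of 37 differences were below 0, all but Pold1 (0.06) and Fen1 (0.06), with a median of -0.29. Pcna is among the 35 by its brighter probe set, and its second one had the other sign. Over all genes 42.4% were below 0 with a median of 0.04. Dim genes are part of that share, and among the 10541 genes above background on at least 3 arrays 66.9% were below 0 with a median of -0.10. In 17 of the 37 genes every chronic Th2 array lay below every acute Th2 array, as in 10.8% of all genes, and in 0 genes above, as in 11.8% of all genes. These shares were not taken among the genes above background alone.

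Rrm2 had the largest of these differences, -0.61 (SE 0.24, 95% interval from -1.14 to -0.07), with 1 of 3 chronic Th2 arrays above background. Ccne2 had -0.56 (SE 0.14), a difference of intensities within background. Mcm3 followed with -0.47 (SE 0.14), Rrm1 with -0.47 (SE 0.16), Rfc4 with -0.46 (SE 0.15) and Tyms with -0.44 (SE 0.13). Each of these 6 had an adjusted p of 0.322 by limma, and the arrays of both Th2 groups did not overlap in any of them. All 8 licensing genes were below 0, with a median of -0.37. Mcm2 was at 8.52, 8.5 and 8.30 in acute Th2 and 8.06, 8.12 and 7.99 in chronic Th2 cells, and Mcm3 at 7.04, 7.21 and 7.02 in chronic Th2 cells, in both cases under all acute Th2 arrays (differences -0.38 and -0.47). All 5 helicase activation genes were below 0 (median -0.21), 7 of 8 polymerase and primase genes (median -0.32) and 8 of 9 genes of the clamp and lagging strand group (median -0.10). Beside these stand the 66.9% below 0 and the median of -0.10 among the genes above background on at least 3 arrays. Of the 5 helicase genes 0 were above background on all chronic Th2 arrays. Cdc6, Pola1, Prim1, Pole, Pole2, Rfc3 and Rfc4 were within background on every chronic Th2 array. Rfc4, of the clamp loader, was at 6.81, 7.22 and 6.83 in acute Th2 and at 6.36, 6.69 and 6.43 in chronic Th2 cells, the latter within background. Acute Th2 replicates 1 and 3 lay under the background limits of chronic Th2 replicates 1 and 2 (7.14 and 6.88), so that no fold is given. Cdt1 (-0.08), Lig1 (-0.09), Tk1 (-0.04), Ccne1 (-0.08) and E2f1 (-0.01) were the closest to 0 of those named here, with overlapping arrays.

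**Figure D4:**
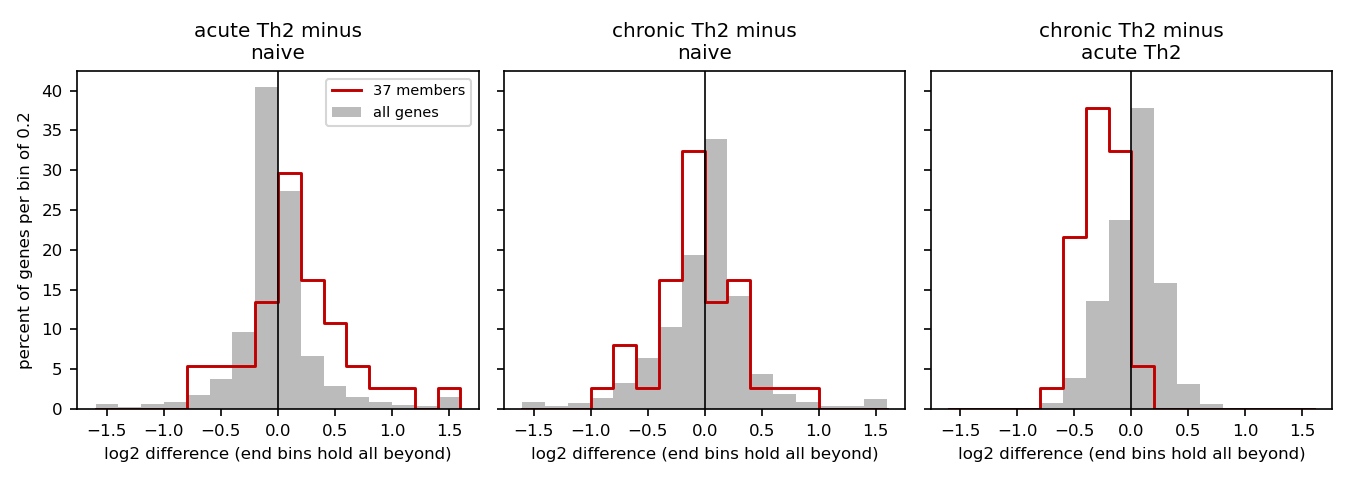
Distribution of log2 differences in the 3 comparisons for the 37 genes and for all 19937 genes, as the percent of genes (vertical axis) in each bin of 0.2 (horizontal axis); bars are all genes and the line is the 37. In chronic minus acute Th2 the 37 genes lie almost all to the left of 0 (35 of 37). Of all genes 42.4% do, and of the 10541 genes above background on at least 3 arrays 66.9% do.

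Single arrays bore unequally on that comparison. Chronic Th2 replicate 3 was the lowest of its group in 30 of the 37 genes, and in 39.9% of all genes. Acute Th2 replicate 1 was the highest of its group in 27 of the 37 genes, and in 50.2% of all genes. Without chronic Th2 replicate 3, 30 of 37 differences were below 0 with a median of -0.17, 6 genes were lower at an unadjusted p under 0.05, and 0 were called (limma). After quantile normalization 33 of 37 were below 0, and after centring each array on its median 37 of 37.

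Of 130 further genes of the same processes, listed by function, 126 were measured, and they show which neighbours of the 37 were called. In acute Th2 minus naive 7 were higher and 3 lower, and in chronic Th2 minus naive 6 were higher and 7 lower. In chronic minus acute Th2 none was called (limma; 1 higher and 14 lower at an unadjusted p under 0.05, for which no share of all genes was taken). Of all genes 3.67% were higher and 2.2% lower in the first and 3.68% and 4.2% in the second of these comparisons, so that the counts are given for the single genes and not as a result about the lists. In chronic minus acute Th2 107 of 126 were below 0 with a median of -0.20, against 66.9% of the genes above background on at least 3 arrays. The S phase control genes gave the largest differences. Cdk6, a kinase that acts with D cyclins in G1, was at 7.50, 9.31 and 8.78 in naive, 10.58, 11.03 and 11.03 in acute Th2 and 10.70, 11.08 and 10.76 in chronic Th2 cells, and rose 5.10-fold and 4.99-fold (adjusted p = 0.00927 and 0.00964 by limma). Both calls held in each of the 9 fits without 1 array, although without acute Th2 replicate 2 the adjusted p in acute Th2 cells lay just under the threshold and rounds to 0.05. Naive replicate 1 was the lowest array, and no naive array reached the Th2 arrays. Rbl2, a pocket protein of the retinoblastoma family that restrains E2F targets in quiescent cells, was at 8.92, 7.75 and 7.32 in naive and between 9.85 and 10.12 on the 6 Th2 arrays, and rose 4.13-fold in acute and 3.71-fold in chronic Th2 cells (adjusted p = 0.00819 and 0.0115 by limma). Its chronic call was lost without chronic Th2 replicate 1 (0.0518) or 2 (0.0508). Cdkn2c, an inhibitor of the G1 kinases, was within background in naive cells (5.51, 5.69 and 5.46) and at 6.69, 6.48 and 6.46 in acute Th2 and 6.65, 6.74 and 6.21 in chronic Th2 cells. It was at least 1.09-fold higher in acute Th2 cells (adjusted p = 0.0052 by limma), and in chronic Th2 cells both groups were within background. Of the called genes that restrain the cycle, Rbl2, Cdkn2c and E2f8 thus rose in acute Th2 cells beside Cdk6, while Btg2 fell. Rb1, the retinoblastoma protein, rose by 0.65 in chronic Th2 cells and E2f8, a repressor of the E2F family, by 1.05 in acute Th2 cells, where it was at least 1.32-fold higher. Btg2, an antiproliferative gene induced by stress, fell by 1.45 in acute and by 1.43 in chronic Th2 cells, and Cdk2, the partner of cyclin E, fell by 0.56 in chronic Th2 cells (adjusted p = 0.00843 by limma). Leaving out 1 array ended the calls of Rb1 in 4 and of E2f8 in 5 of the 9 fits, that of Btg2 in acute Th2 cells without acute Th2 replicate 2 (0.0727) or 3 (0.0561), and that in chronic Th2 cells without chronic Th2 replicate 1 (0.0710) or 2 (0.0638).

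Of 30 other measured genes of nucleotide synthesis, 1 was higher and 1 lower in acute Th2 and 1 higher and 2 lower in chronic Th2 cells against naive cells. Cmpk1, which phosphorylates CMP and UMP, was at 8.05, 8.24 and 7.95 in naive, 9.34, 9.12 and 9.43 in acute Th2 and 9.0, 9.16 and 8.77 in chronic Th2 cells, and rose 2.32-fold and 1.86-fold (adjusted p = 0.000889 and 0.00476 by limma). Impdh1, a dehydrogenase of guanine nucleotide synthesis, went the other way, from 8.17, 8.67 and 8.37 in naive to 7.63, 7.65 and 7.67 in acute Th2 and 7.28, 7.55 and 7.26 in chronic Th2 cells. It fell by 0.76 and by 1.04 (adjusted p = 0.0119 and 0.00232 by limma), and its acute call was lost without acute Th2 replicate 2 (0.0541) or 3 (0.0522). Dtymk, which phosphorylates the dTMP made by Tyms, fell by 0.57 in chronic Th2 cells (adjusted p = 0.0404 by limma), a call that 8 of the 9 fits without 1 array did not keep. Naive replicate 1 was the lowest naive array in 23 of these 30 genes. Without it, 1 was higher and 9 lower in acute Th2 and 1 higher and 17 lower in chronic Th2 cells, where 6.05% of all genes were higher and 6.11% lower in acute Th2 and 5.84% higher and 11.4% lower in chronic Th2 cells. Shmt2 and Mthfd2, mitochondrial enzymes of folate metabolism chosen after their values were seen, show the size of that gap: Shmt2 was at 8.19, 11.18 and 11.31 and Mthfd2 at 7.97, 11.00 and 10.93 on naive replicates 1, 2 and 3.

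Among 35 other genes of origins and forks, Ticrr, the treslin that brings Cdc45 to the ring, was within background in naive cells (5.79, 5.76 and 5.87) and at 7.47, 6.62 and 6.58 in acute Th2 and 6.50, 6.24 and 5.99 in chronic Th2 cells. In acute Th2 cells it was at least 1.39-fold higher (measured difference 1.08, adjusted p = 0.0287 by limma), and like Cdc45 it was highest on acute Th2 replicate 1. Mcm9, a helicase of DNA repair related to the ring, was at 7.33, 7.32 and 7.06 in naive, 6.51, 6.83 and 6.82 in acute Th2 and 6.48, 6.70 and 6.53 in chronic Th2 cells, and fell by 0.51 in acute Th2 cells (adjusted p = 0.0462 by limma). Its chronic Th2 arrays were all within background, at least 1.29-fold lower than naive cells (measured difference -0.66, adjusted p = 0.0138 by limma). Mcmbp, which binds the ring subunits, fell by 0.67 and Orc6, of the origin recognition complex, by 0.41, both in chronic Th2 cells (adjusted p = 0.0325 and 0.0471 by limma). Of these calls those of Ticrr, Mcm9 in acute Th2 cells, Mcmbp and Orc6 were each lost in at least 4 of the 9 fits that left out 1 array, and that of Mcm9 in chronic Th2 cells without chronic Th2 replicate 1 (0.0643). Of 16 checkpoint genes, Brca1, which protects stalled forks, was the 1 called, with differences of 0.41 and 0.35 and 1 of 9 arrays above background. Its acute call was lost without acute Th2 replicate 3 (limma, adjusted p = 0.0555) and its chronic call in 4 of the 9 fits. None of 12 histone chaperone and chromatin genes was called (limma; 2 higher and 1 lower in acute Th2 and 2 higher and 2 lower in chronic Th2 cells at an unadjusted p under 0.05).

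**Figure D5:**
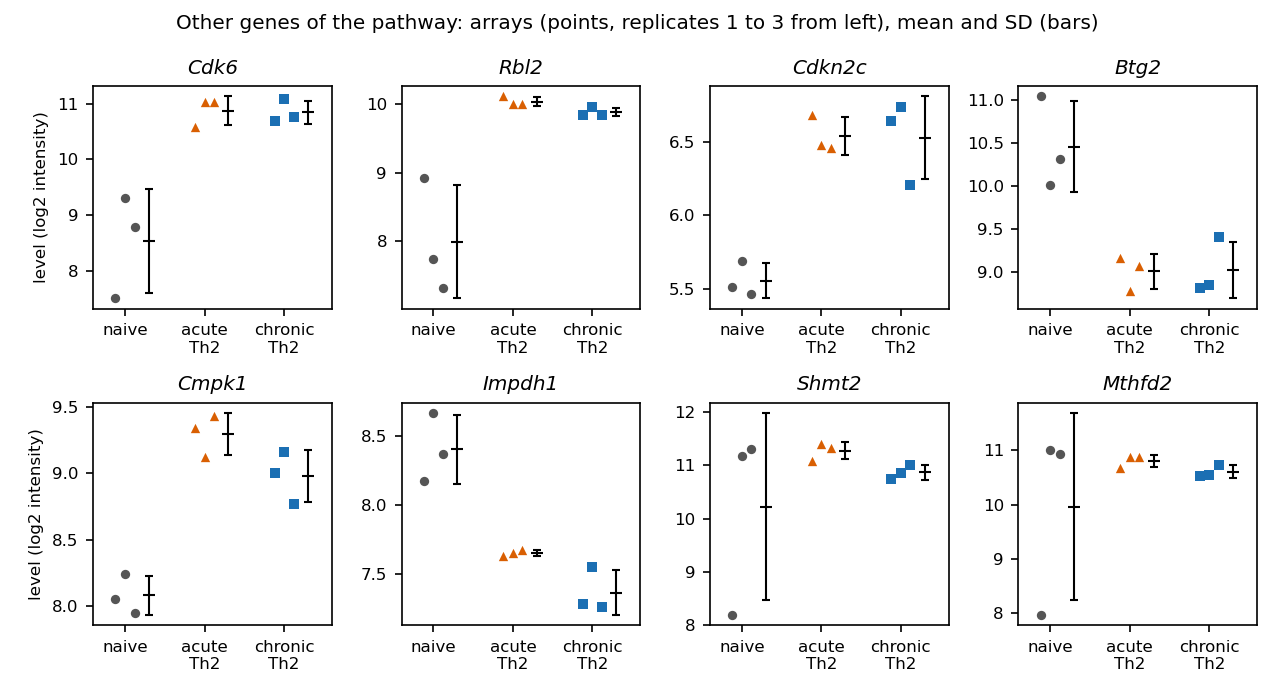
Levels (log2 intensity, vertical axis, own scale in each panel) of 8 genes of S phase control and nucleotide synthesis that are not among the 37, with 1 point per array and the mean with its SD (n = 3) as a bar. Cdk6, Rbl2, Cdkn2c and Cmpk1 have all 6 Th2 arrays above the 3 naive arrays, Impdh1 and Btg2 have all 6 below, and Shmt2 and Mthfd2 have naive replicate 1 far under the other 8 arrays.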

How the data were processed

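The deposited values are log2 intensities of probe sets, which the authors normalised across the 9 arrays with RMA, per the submitters' processing notes. These also name limma. Versions, genome build and filters are not stated in these sources. Of 34760 probe sets, 21640 name 1 gene, 1321 name several and were not used, and 11799 are unnamed here. The brightest probe set of a gene over all arrays stands for it, which gave 19937 genes. Brightness after RMA depends on the probes, so that levels of different genes are not compared.

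A linear model with the group as its single term was fitted to all 9 arrays (limma 3.58.1, lmFit and eBayes; R 4.3.3). Its two-sided p-values took the Benjamini-Hochberg adjustment across the 19937 genes, separately in each comparison, with calls made where the adjusted p lay under 0.05. SE is that of the moderated test, and SD that of 3 arrays. The script was tested on simulated data: for acute Th2 minus naive, 79% of 100 genes changed by 1 and 94% of 100 changed by 2 on the log2 scale were called among 19937. With 3 arrays against 3, their number limits the precision, and scan dates and detection calls are not used here. A fold given as "at least" sets the mean of the brighter group against the background limit of each array of the dim group. It is a ratio of means without a confidence interval, so that sampling error is not in it.

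The 37 genes, the further lists and the tests were chosen with earlier results of these data known. All 37 could be named, and of each further list up to 4 called genes per comparison with the largest difference. Alternatives were array weights, quantile normalization, centring, a dim gene filter, the mean of a gene's probe sets, the groups compared alone, a trended robust prior, a replicate block, and each array left out. The dimmest probe set, and leaving out naive replicate 1 with chronic Th2 replicate 3, were added after seeing the data.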

Additional observations from a re-analysis of the deposited data

How the results depend on the processing

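The median difference of the 37 genes stayed above 0 in acute Th2 minus naive (0.09 to 0.23 over the fits that left out 1 array) and below 0 in chronic minus acute Th2 (-0.36 to -0.17; -0.13 with array weights), while in chronic Th2 minus naive it ran from -0.13 to 0.06. Leaving out 1 array gave 2 to 8 genes higher and 0 to 2 lower in acute Th2 minus naive, 0 to 2 higher and 0 to 5 lower in chronic Th2 minus naive, and 5 to 30 and 5 to 46 called genes of the further lists. Array weights gave 10 higher and 3 lower in acute Th2, 3 higher and 4 lower in chronic Th2 against naive cells, 4 lower in chronic minus acute Th2, and 38, 42 and 15 called genes of the further lists, but also called 20.2%, 23.4% and 33.7% of all genes. Without both naive replicate 1 and chronic Th2 replicate 3 the counts were 8 higher and 3 lower, then 3 higher and 3 lower, and 33, 52 and 4 of the further lists, with 13.2%, 23.4% and 5.45% of all genes called. Fits on the compared groups alone gave 0 higher in chronic Th2 minus naive, and 6 and 5 of the further lists. In chronic Th2 minus naive, quantile normalization gave 1 lower, centring 3 lower, and the dim gene filter 2 higher and 3 lower. The cause of these moves was not tested. The sample titles number the replicates and do not name pairs. Correlations of same-numbered deviations ran from -0.085 to 0.572. Differently numbered arrays were not compared in this way, so that these values cannot decide whether the numbers pair samples. With the number as a block, 6 genes were higher in acute Th2, 2 were higher and 3 lower in chronic Th2 against naive cells, and 0 were called in chronic minus acute Th2. Of the settings listed, none turned the direction of a called difference.

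Signal over background limits what can be said of the 7 dim genes and of the 13 genes that were within background on all chronic Th2 arrays, where a difference may understate the change. The array does not separate near-identical copies. The activation step, the organ, the day and the tissue digestion are not described as differing within a group, although naive replicate 1 stood apart in genes of activation. They differ or may act differently between groups, and their part was not tested.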
